A study of Mus musculus with 2 samples.

Results

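Genes of the oligodendrocyte lineage were compared between the forebrain RNA of an H2A.Z conditional knockout and its floxed control. The 8 genes, chosen by name, were Olig1, Olig2, Sox8, Sox10, Pdgfra, Cspg4, Gpr17 and Cnp, out of 19720 genes in the deposited table, and all 8 are protein-coding. H2A.Z is a histone variant that takes the place of ordinary H2A in part of the nucleosomes. The control is labelled H2AZfl/fl in its genotype field and WT in its title, so it carries floxed alleles, and the knockout is labelled H2AZcKO. Both are C57BL/6 mouse embryos, with 1 count column each although the design text speaks of triplicates. The titles give embryonic day 16 and a characteristics field day 12, which leaves the age open to doubt. Tissue is labelled telencephalic and the protocol names dissected cortex. The sources used here name neither the Cre driver nor any pooling of embryos.

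With 1 library per genotype no test was possible, and every difference below is between these 2 libraries. The libraries held 8474545 control and 9028523 knockout reads. A gene is called measured with at least 20 reads over both libraries, which 14366 genes reached, all 8 lineage genes among them. Ratios are knockout over control after TMM scaling, and a gene is called apart at 1.5-fold or more. Each interval is the exact 95% Clopper-Pearson interval for the share of a gene's reads that came from the knockout library. It covers counting error only, not the spread between animals. The targeted gene H2afz had 1152 control and 535 knockout reads, 2.24-fold lower (2.02 to 2.49). The cortical factor gene Emx1, with 588 and 645 reads, was present in both libraries. The choroid plexus gene Ttr had 6025 control and 12 knockout reads. The median log2 ratio of all measured genes was 0.00.

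Oligodendrocytes are the myelin-forming glia of the central nervous system. In the forebrain, their precursors first arise in ventral progenitor zones under Sonic hedgehog signalling, and later in the cortex itself. Olig1 and Olig2 encode basic helix-loop-helix transcription factors, and Olig2 is needed for the lineage to form. Sox8 and Sox10 belong with Sox9 to the SoxE factors, and Sox10 drives the later myelin genes. Pdgfra encodes the receptor for the growth factor PDGF-A on precursors, and Cspg4 the proteoglycan NG2 on their surface. Gpr17 encodes a receptor of precursors on the way to differentiation, and Cnp an enzyme of myelin membranes. Outside the lineage, fibroblasts also express Pdgfra, pericytes Cspg4, and neural crest derivatives Sox10.

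Of the 8 lineage genes, 7 had a ratio above 1 and Pdgfra a ratio below 1, with Cnp turning below 1 when scaled by library total. Olig1 was apart and higher in the knockout library, and Pdgfra was apart and lower. That is 1 of 8 in each direction, where 3.52% of all measured genes were higher and 5.43% lower by this margin. The interval lay above a ratio of 1 for 4 genes, Olig1, Sox8, Olig2 and Cspg4, and below it for Pdgfra. Over all measured genes these shares were 12.5% above and 9.3% below. A log2 ratio above 0 was found in 50.4% of measured genes. The median log2 ratio of the 8 genes was 0.37, and their range was -0.71 to 0.74. Pdgfra and Cspg4 are also expressed by mesenchymal cells. Leaving both out removed Pdgfra, the lineage gene below 0, so all 6 remaining genes were necessarily above 0 with TMM scaling. Cnp was again above by the least, and the median of the 6 was 0.38.

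**Figure D1:**
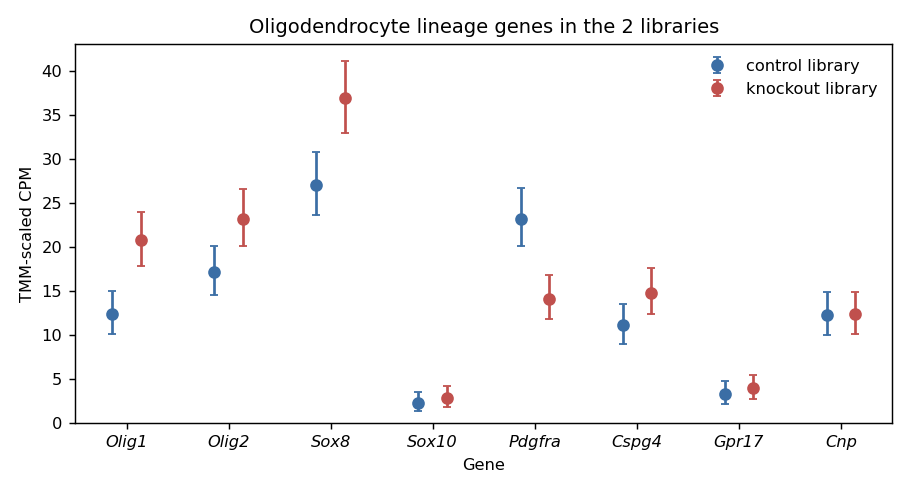
TMM-scaled CPM, the read count relative to library size (vertical axis), of the 8 lineage genes in the control library (blue) and the knockout library (red), with exact 95% Poisson intervals as bars. Olig1 stood at 12.4 in the control and 20.7 in the knockout with bars that do not overlap, and Pdgfra at 23.2 and 14.1 in the opposite order.

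The Olig genes were both higher in the knockout library. Olig1 lies on the plus strand of chromosome 16, from 91269772 to 91271933 (GRCm38). It had 106 control and 185 knockout reads, or 12.4 and 20.7 CPM (reads relative to library size). This was 1.67-fold higher (1.31 to 2.15), and 97.9% of measured genes had a lower ratio. Olig2 lies 41095 bases away, from 91225550 to 91228677, and had 147 and 207 reads, or 17.1 and 23.2 CPM. Its level was 1.35-fold higher (1.09 to 1.68), short of the margin for apart. The ratio of Olig2 relative to that of Olig1 was 0.807 (0.579 to 1.12), so the reads do not separate these neighbours. This comparison needs no scaling, since both genes come from the same libraries. Olig3, the third family member and a marker of other brain regions, had 14 control and 3 knockout reads, which is below the minimum of 20, and a log2 ratio of -2.11 (-4.72 to -0.44). Relative to Olig1 and Olig2, this gene lay in the opposite direction.

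The nearest measured genes around the Olig pair were closer to level. Paxbp1, on the side of Olig2, had 1212 and 1204 reads (log2 ratio -0.07, interval -0.18 to 0.05). Ifnar2, an interferon receptor gene on the side of Olig1, had 183 and 153 reads (log2 ratio -0.31, interval -0.63 to 0.00). Neither was apart, and both ratios lay on the other side of 0 from those of Olig1 and Olig2.

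Sox8 was the lineage gene with the most reads. The gene spans 25565892 to 25570686 on the minus strand of chromosome 17 and had 232 control and 329 knockout reads, or 27.0 and 36.9 CPM. Its level was 1.36-fold higher in the knockout library (1.15 to 1.62). Sox10, which spans 79154913 to 79164490 on the minus strand of chromosome 15, had 19 and 25 reads, a ratio of 1.26 (0.669 to 2.43). At this depth no difference of Sox10 was detectable, and its interval holds both a level ratio and the ratio of Sox8. The ratio of Sox10 relative to Sox8 was 0.928 (0.478 to 1.83). Sox9, the SoxE factor of radial glia and astrocytes, had 885 and 854 reads (log2 ratio -0.11, interval -0.25 to 0.03). Sox8 was higher relative to Sox9 by 1.47-fold (1.21 to 1.79), a pair chosen after its values were seen. Per kilobase of exon, the level of Sox9 was 2.88 times that of Sox8 in the control and 1.96 times in the knockout.

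The start regions of Olig2, Sox8 and Pdgfra are shown as examples, chosen after their values were seen, of lineage genes that were higher (the first pair) and lower in the knockout library. They are the RefSeq promoter windows on GRCm38.p6, 250 bases before to 50 after the start, 5′ to 3′ on the gene's strand, and 5 of the 8 genes matched this table, Cspg4 and Cnp being the others. For Pdgfra the RefSeq start lies upstream of the gene start in the deposited table, so most of the bases after it lie outside the gene as deposited. Capitals mark the GC box GGGCGG, the CCAAT box and the TATA box TATAAA on either strand. The windows are chr16:91225300-91225599 for Olig2 on the plus strand, chr17:25570637-25570936 for Sox8 on the minus strand and chr5:75152001-75152300 for Pdgfra on the plus strand.
Olig2: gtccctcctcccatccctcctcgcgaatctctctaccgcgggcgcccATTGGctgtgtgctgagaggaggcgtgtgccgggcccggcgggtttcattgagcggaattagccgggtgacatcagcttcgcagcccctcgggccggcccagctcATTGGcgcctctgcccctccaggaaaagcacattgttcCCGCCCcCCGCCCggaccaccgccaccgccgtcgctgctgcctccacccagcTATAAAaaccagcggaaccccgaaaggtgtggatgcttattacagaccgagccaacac
Sox8: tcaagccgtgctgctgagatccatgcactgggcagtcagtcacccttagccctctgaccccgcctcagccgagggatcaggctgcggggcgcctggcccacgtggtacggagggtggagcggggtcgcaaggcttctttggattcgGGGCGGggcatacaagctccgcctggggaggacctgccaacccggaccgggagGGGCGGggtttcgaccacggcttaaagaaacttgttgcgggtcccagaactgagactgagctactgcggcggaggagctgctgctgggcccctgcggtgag
Pdgfra: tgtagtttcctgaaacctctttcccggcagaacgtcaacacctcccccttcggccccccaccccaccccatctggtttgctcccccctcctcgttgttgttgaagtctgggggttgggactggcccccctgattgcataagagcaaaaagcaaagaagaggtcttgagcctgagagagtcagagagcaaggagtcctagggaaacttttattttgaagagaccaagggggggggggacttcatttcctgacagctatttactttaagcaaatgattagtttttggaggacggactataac

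The Olig2 and Sox8 windows were rich in G and C, at 65% and 66.3%, above 81.7% and 84.4% of the 32851 windows in the table. They held 25 and 21 CG dinucleotides, against a median of 7 over all windows. The Pdgfra window had 51% G and C, close to the median of 52.7%, and 5 CG dinucleotides. Both Olig2 and Sox8 held 2 GC boxes, a motif found in 35.7% of all windows, and Pdgfra held 0. Of the windows not shown, Cspg4, which was higher, and Cnp, which was level, had 60% and 59.7% G and C, 17 CG dinucleotides each and 2 GC boxes each. Olig2 also held 2 CCAAT boxes (in 37.4% of windows) and 1 TATAAA (in 13.6%). The GLI site GACCACCCA, through which hedgehog signalling acts, occurred in 0.253% of windows and in 0 of these 3. The Sox motif ACAAAG occurred in 18.7% and also in 0 of the 3, but once in the Cnp window. These matches describe the letters of the windows and carry no measurement of binding.

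Pdgfra was the lineage gene lower in the knockout library. The gene spans 75152292 to 75198215 on the plus strand of chromosome 5 and had 199 control and 126 knockout reads, or 23.2 and 14.1 CPM. Its level was 1.64-fold lower (1.31 to 2.07), and 3.85% of measured genes had a lower ratio. Relative to Olig2, the ratio of Pdgfra was 0.450 (0.327 to 0.619), so these lineage genes differed from each other beyond counting error. Its neighbours were level within counting error: Gsx2, a ventral progenitor factor gene, had 68 and 64 reads (log2 ratio -0.14, interval -0.66 to 0.37). Kit, whose receptor is related to that of Pdgfra, had 971 and 993 reads (log2 ratio -0.02, interval -0.15 to 0.10).

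Genes of meninges and fibroblasts, which also express Pdgfra, were lower in the same library by a wider margin. Of 15 measured genes on that list, 13 were apart and lower and 0 higher, with a median log2 ratio of -3.66 and a range of -4.76 to 0.09. The summed level of the 16 genes was 338.4 CPM in the control and 80.2 in the knockout, and no measured gene of the list was at 0 reads in either library. The collagen gene Col1a1 had 455 and 17 reads, 27.1-fold lower (17.2 to 48.2), and Dcn, the decorin gene, had 152 and 10 reads. The ratio of Pdgfra was 16.9 times that of Col1a1 (9.81 to 30.7), a pair chosen after its values were seen. The part of these cells in the Pdgfra difference was not tested. In bulk tissue, fewer cells of a type and less RNA per cell cannot be told apart.

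The other PDGF genes were below or near level. Pdgfa, the ligand gene that serves precursors, had 95 and 83 reads (log2 ratio -0.25, interval -0.69 to 0.19), and Pdgfc, another ligand gene, 96 and 84 reads. Pdgfrb, the receptor gene of pericytes, had 270 and 231 reads (log2 ratio -0.28, interval -0.54 to -0.02). Of 5 measured PDGF ligand and receptor genes, 1, Pdgfra itself, was apart and lower, 0 were higher, and the median log2 ratio was -0.25. The ratio of Pdgfra was 0.740 times that of Pdgfrb (0.551 to 0.993), a pair also chosen after its values were seen.

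Cspg4, the second surface marker of precursors, went the other way. The gene spans 56865104 to 56899870 on the plus strand of chromosome 9 and had 95 control and 132 knockout reads, or 11.1 and 14.8 CPM. Its level was 1.33-fold higher (1.02 to 1.76), which is short of apart, and with scaling by library total the interval included 1. The ratio of Cspg4 was 2.19 times that of Pdgfra (1.53 to 3.15), so the precursor surface markers lay apart from each other. On the list of pericyte and smooth muscle genes, 4 of 14 measured genes were apart and lower, 1 was higher, and the median log2 ratio was -0.30. The summed level of all 16 genes on that list was 318.4 CPM in the control and 286.5 in the knockout library. The pericyte gene Rgs5 had 709 and 659 reads (log2 ratio -0.16, interval -0.32 to -0.01). Relative to Pdgfrb, Cspg4 was 1.62-fold higher (1.17 to 2.26), a pair chosen after its values were seen. The part of pericytes in the Cspg4 difference was not tested.

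**Figure D2:**
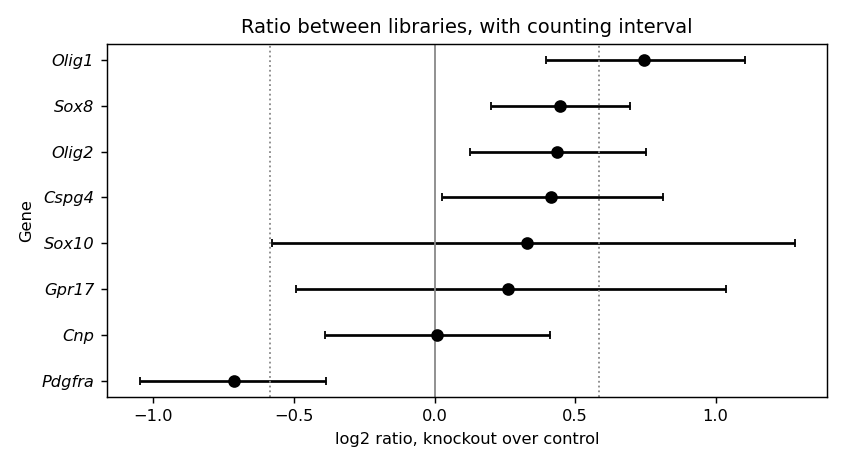
Log2 ratio of knockout over control (horizontal axis) of the 8 lineage genes in order of their ratio, with exact 95% counting intervals as bars and dotted lines at 1.5-fold either way. Olig1 at 0.74 lies past the upper line and Pdgfra at -0.71 past the lower, and the bars of Sox10, Gpr17 and Cnp cross 0.

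Gpr17 and Cnp mark later steps of the lineage, and neither was separated from level. Gpr17 spans 31942997 to 31949636 on the minus strand of chromosome 18 and had 28 control and 35 knockout reads, or 3.26 and 3.92 CPM, a ratio of 1.20 (0.710 to 2.05). Its ratio relative to Olig2 was 0.888 (0.50 to 1.59). Exons of Gpr17 overlap those of Lims2, an adhesion adaptor gene on the opposite strand with 5 and 15 reads, and the sources used here do not say whether the counting used strand. Cnp spans 100574904 to 100591729 on the plus strand of chromosome 11 and had 105 and 110 reads, or 12.2 and 12.3 CPM, a ratio of 1.01 (0.764 to 1.33). Its sign turned with scaling by library total, to a log2 ratio of -0.02. Exons of Cnp overlap those of Dnajc7, a chaperone gene on the opposite strand with 1532 and 1733 reads, so part of the Cnp reads is uncertain. Next to Sox8, the antisense gene 2810468N07Rik had 23 and 20 reads. It starts 125 bases beyond Sox8 at the deposited positions, whereas exons of the pair overlap in GENCODE M21. In GENCODE M21, exons of Olig1 also overlap those of Gm15966, and exons of Pdgfra those of Gm42802 and Gm42803, all on the opposite strand. These overlapping genes are not listed in the deposited table, so their part in the reads of Olig1 and Pdgfra is not known.

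Around the 8 genes, 14 nearest measured neighbours that are not lineage genes were listed. Genes that overlap a lineage gene at the deposited positions were not taken as neighbours, which left out Lims2 and Dnajc7. Lims2, with 5 and 15 reads, was apart and higher (log2 ratio 1.44, interval -0.005 to 3.34), and Dnajc7 had 1532 and 1733 reads. Of the 14 neighbours, 1 was apart, where 3.52% of all measured genes were apart and higher and 5.43% apart and lower. This neighbour was Ttc25, a cilium gene next to Cnp, with 29 and 14 reads (log2 ratio -1.08, interval -2.14 to -0.14). The highest neighbour was Lingo1, next to Cspg4 and itself an inhibitor of myelination, with 764 and 896 reads (log2 ratio 0.17, interval 0.03 to 0.31). In all, 2 of the 14 neighbours had a ratio above 1.

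**Figure D3:**
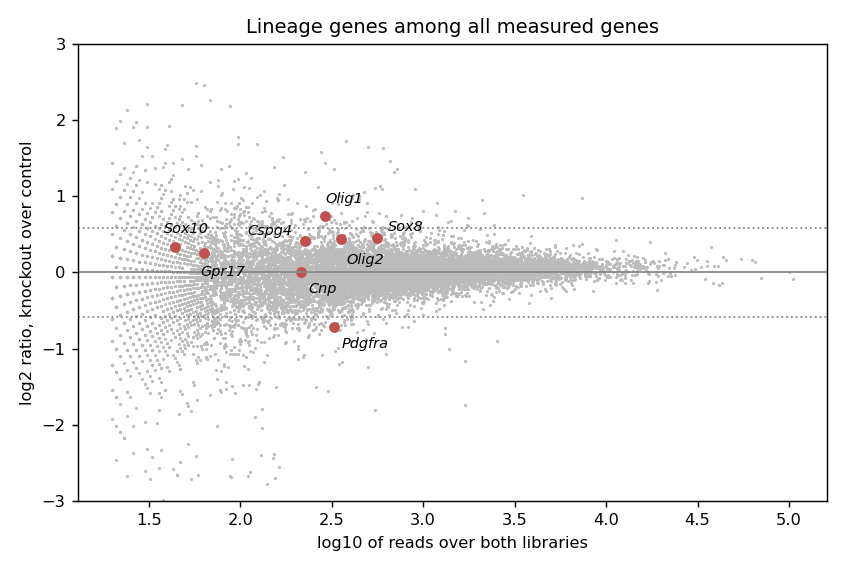
Log2 ratio of knockout over control (vertical axis) against the log10 of reads over both libraries (horizontal axis) for 14366 measured genes (grey) and the 8 lineage genes (red), with dotted lines at 1.5-fold. The axis stops at 3 either way, which leaves out 64 genes, and 6 lineage genes lie between the dotted lines.

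Levels per kilobase of exon, in scaled CPM, set the transcription factors above the surface markers in both libraries, except for Sox10. In the control library Sox8 stood at 8.67, Olig2 at 6.77 and Olig1 at 5.72, and counting intervals of neighbours in this order overlapped. Cnp followed at 3.36 and Pdgfra at 2.31, each separated from its neighbours. Cspg4 at 0.928, Sox10 at 0.726 and Gpr17 at 0.628 were lowest, with overlapping intervals. In the knockout library Olig1, at 9.59, stood above Olig2, at 9.17, but their intervals overlapped. Pdgfra, at 1.41 (1.17 to 1.68), there overlapped Cspg4, at 1.24 (1.04 to 1.47). The level of Pdgfra per kilobase was 2.49 times that of Cspg4 in the control and 1.14 times in the knockout. Sox8 had a level 11.9 times that of Sox10 in the control and 12.9 times in the knockout. Exon lengths are from GENCODE M21 and may differ from those the authors counted over.

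A list of other genes of oligodendrocyte precursors had a smaller median ratio than the 8. The list is not particular to precursors, and it holds Sox9, the factor of radial glia and astrocytes. Its 29 genes in the deposited table had 24134 control reads, against 931 for the 8 lineage genes. The part of other cells in the median of this list was not tested. Of 27 measured genes on that list, 3 were apart and higher, 1 was lower, and 19 were above 0, with a median log2 ratio of 0.11. The higher genes all had fewer than 100 reads, so 0 were counted with that minimum. Nkx2-2, a homeobox gene of ventral progenitors and of maturing precursors, had 6 and 58 reads, 8.65-fold higher (4.02 to 26.4). C1ql1, which encodes a secreted C1q-like protein, had 14 and 29 reads, 1.96-fold higher (1.02 to 4.08), and Lims2 was the third. Sulf1, a heparan sulfate editing enzyme gene of progenitors and mesenchyme, had 421 and 125 reads, 3.49-fold lower (2.86 to 4.31).

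Genes of myelin and maturation did not share a direction. Of 19 measured genes, 2 were apart and higher and 2 lower, and the median log2 ratio was -0.06, which turned to 0.02 without a read minimum. Mbp, the myelin basic protein gene, had 195 and 243 reads (log2 ratio 0.26, interval -0.02 to 0.54). Mog, a late myelin gene, had 78 and 72 reads. Myrf, the regulator of myelin genes, had 22 and 8 reads, 2.75-fold lower (1.23 to 7.43). Cldn11, a tight junction gene of myelin and of meninges, had 79 and 2 reads (log2 ratio -5.05, interval -8.43 to -3.46). Tcf7l2, a Wnt effector gene of maturing oligodendrocytes and of thalamus, had 111 and 1017 reads, 8.77-fold higher (7.24 to 10.8). The other higher gene was Bcas1, a marker of early myelinating cells, with 10 and 20 reads and an interval that included 1.

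Within the Sonic hedgehog pathway, 3 of 14 measured genes were apart and higher (2 with scaling by library total, where Ptch1 missed the margin) and 0 lower, with a median log2 ratio of 0.02 that turned to -0.01 with scaling by library total and to -0.06 with a minimum of 100 reads. Shh, the ligand gene, had 12 and 31 reads, 2.42-fold higher (1.24 to 5.31). Ptch1, the receptor gene that is itself a pathway target, had 371 and 587 reads, 1.52-fold higher (1.33 to 1.74). Hhip, an inhibitor gene and target, had 11 and 22 reads, with an interval that included 1. Gli1, the other classical target, had 70 and 57 reads (log2 ratio -0.35, interval -0.88 to 0.17), on the other side of 0 from Ptch1.

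Among known inhibitors of oligodendrocyte differentiation the genes apart were all lower. Of 17 measured genes, 0 were apart and higher and 3 lower, with a median log2 ratio of -0.06. Bmp7, a bone morphogenetic protein gene, had 140 and 66 reads, 2.2-fold lower (1.63 to 3.0), Id3, a target of that pathway, 145 and 93 reads, and Hey2, a Notch target, 57 and 37 reads. Meningeal and vascular cells also express these genes. Their part in these differences was not tested.

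Most measured ventral and diencephalic markers also stood higher in the knockout than in the control. Of 13 measured genes of the ventral telencephalon, 7 were apart and higher and 0 lower, with a median log2 ratio of 0.64 and a summed level of 626.9 CPM in the control and 920.05 in the knockout library. Nkx2-1, a factor gene of the medial ganglionic eminence, had 171 and 489 reads, 2.74-fold higher (2.31 to 3.29), and Isl1, a striatal factor gene, 117 and 382 reads. Of 12 measured diencephalic genes, 7 were apart and higher and 1 lower, with a median log2 ratio of 1.76, unchanged with the thalamic gene Shox2, at 0 and 85 reads, set to the floor of 3 reads. That median was -0.0055 over the 6 genes with at least 100 reads. Of the 12 measured diencephalic genes, 8 were above 0, and the interval lay below 0 for 2. Olig3, which was lower but below the read minimum, is on this list too. The summed level of the list was 110.6 and 228.7 CPM, of which Tcf7l2, also on the myelin list, held 12.9 and 114.0. Most of the rise in this sum thus came from Tcf7l2. Of 12 dorsal cortical genes, 0 were apart, and the median log2 ratio was -0.08. The interval lay below 0 for 7 of these genes and above 0 for 3, where the shares over all measured genes were 9.3% and 12.5%. These shares are not at like depth. The median half-width of the interval was 0.092 in log2 for the dorsal genes and 0.258 for all measured genes. Smaller ratios thus fall outside counting error on the dorsal list. Ventral progenitors and parts of the diencephalon also express Olig1 and Olig2. The part of these regions in the differences of the Olig and Sox genes was not tested.

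**Figure D4:**
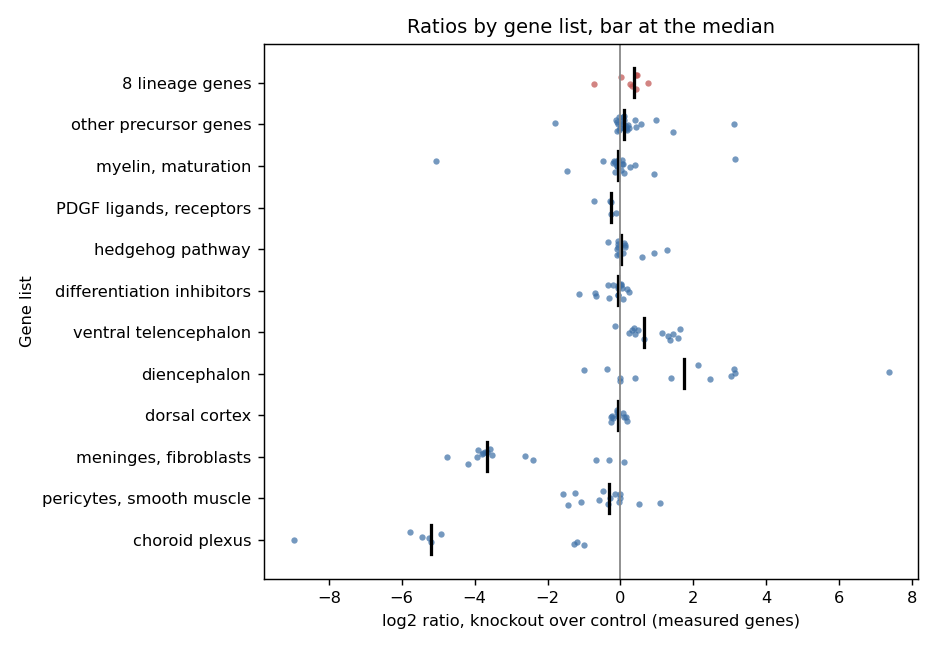
Log2 ratio of knockout over control (horizontal axis) of every measured gene on 12 gene lists (vertical axis), 1 point per gene, with a bar at each list's median. The 8 lineage genes (red) have a median of 0.37, between those of other precursor genes at 0.11 and ventral telencephalic genes at 0.64, and the meningeal and choroid plexus lists lie far below 0.

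Neural crest derivatives, which also express Sox10, were sparsely represented. Of 16 genes of crest, Schwann cells and melanocytes, 6 were measured, 0 were apart and higher and 2 lower, with a median log2 ratio of -0.06. The summed level of the 12 genes present in the deposited table was 114.0 CPM in the control and 106.05 in the knockout library. Ednrb, which neural progenitors also express, held 68.2 and 66.4 CPM of this. The lower genes were Tfap2b, a crest factor gene with 19 and 4 reads (log2 ratio -2.17, interval -4.32 to -0.72), and Mitf, the melanocyte factor gene with 29 and 12 reads, 2.45-fold lower (1.24 to 5.41). Dct and Ednrb, melanocyte genes that neural progenitors also express, had log2 ratios of -0.08 (-0.47 to 0.31) and -0.04 (-0.21 to 0.13).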

How the data were processed

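Libraries were made with a TruSeq kit from Trizol-extracted RNA, per the labels' protocols. Of software, HTSeq 0.6.0, TopHat2 2.0.12 and Bowtie2 2.2.3 are listed in the submitters' processing notes, beside build mm9 and without roles. Of the gene positions in the deposited table, 15537 (78.8%) equal GENCODE M21 positions on GRCm38, so coordinates are given as GRCm38. Of the gene IDs, 19616 matched a symbol.

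The deposited table holds raw read counts, 1 column per genotype, per the file headers. The authors also deposited CPM values, their fold (a ratio of control over knockout), its log2, and p-value columns from a test not given in the sources used here. Counts were scaled here with TMM (edgeR 4.0.16, R 4.3.3), and log2 ratios used a prior of 0.5 read. Pairs of genes were compared by conditional odds ratios. Other steps used Python 3.11.15, pandas 2.3.3, numpy 2.4.6, scipy 1.17.1 and matplotlib 3.10.9. The calculation was tested on simulated data. Alternatives were scaling by library total or by DESeq2 1.42.0 size factors, a prior of 5 reads, a minimum of 100 reads or none, and leaving out Pdgfra and Cspg4.

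The 8 genes and the 16 lists were chosen with earlier results of these data known. Genes eligible for naming were the 8, up to 4 of each list furthest from 0, fixed markers and nearest neighbours. Some eligible genes are not reported here. Beyond these, Dnajc7, Gm15966, Gm42802 and Gm42803 are named for their overlap with lineage genes in GENCODE M21.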

Additional observations from a re-analysis of the deposited data

How the results depend on the processing

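No paired analysis was possible because each genotype has 1 library, and for the same reason no library could be left out. Under the 2 other scalings and a prior of 5 reads, log2 ratios of the 8 genes stayed within 0.71 to 0.77 for Olig1, 0.40 to 0.46 for Olig2, 0.41 to 0.47 for Sox8, and -0.75 to -0.69 for Pdgfra. Cnp, at -0.02 to 0.03, was the lineage gene whose sign turned. The lineage median ranged from 0.33 to 0.43, and Olig1 and Pdgfra were the genes apart under each scaling, prior and minimum. Without Pdgfra and Cspg4, 0 lineage genes were lower, which follows from leaving out Pdgfra.

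With a minimum of 100 reads, 165 genes of all were higher and 200 lower, and without a minimum 1833 and 2303. The counts of genes apart on the lists moved with this minimum, since fewer or more genes were counted. At 100 reads, 0 other precursor genes were higher, 1 myelin gene was higher and 0 lower, 1 hedgehog gene was higher, 2 diencephalic genes were higher, 8 meningeal genes were lower, 0 pericyte genes were higher and 1 lower, 0 neural crest genes were lower, 5 choroid plexus genes were lower and 0 endothelial genes were lower. The diencephalic median was -0.0055 there. Without a minimum, 4 myelin genes were higher, 2 PDGF genes lower, 1 gene of the SoxE and Olig families lower, 2 diencephalic genes lower, and 1 neural crest gene higher and 5 lower. With a prior of 5 reads the choroid plexus median was -3.35, against -5.19 with the prior of 0.5 and -4.91 with its gene at 0 reads set to the floor. At this depth the intervals of Sox10 and Gpr17 have half-widths of 0.93 and 0.76 in log2. Differences well below these were not detectable.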

Other observations

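The annotation column of the deposited table marks 147 genes with an oligodendrocyte or myelination process, a list read from the table after the values above were seen. Of the 8 lineage genes, 4 carry such a term: Cnp, Olig2, Sox10 and Sox8. Of the 125 measured genes so marked, 65 were above 0, 5 were apart and higher and 6 lower, with a median log2 ratio of 0.01. Among the 8 lineage genes 7 were above 0, with the median of 0.37 given above.

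In the authors' deposited table, 0 of the 8 lineage genes are marked significant, and 318 of all 19720 genes are. All of the 318 differ by at least 2.00-fold there. At so small a share over all genes, 0 of 8 says nothing particular about the lineage genes. The authors' deposited table gives adjusted p-values below 0.05 for 3 of the 8 lineage genes, and for 1464 of all 19720 genes. The 3 are Olig1 at 0.00116, Sox8 at 0.0147 and Pdgfra at 0.00016. For Olig2 the authors' deposited table gives 0.0900 and for Cspg4 0.251. The sources used here do not name the test behind these values, and the table has 1 count column per genotype.

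Markers of endothelium and of microglia and macrophages were also looked at. Of 10 measured endothelial genes, 1, the transporter gene Slco1a4 with 33 and 0 reads, was apart and 11.4-fold lower against a floor of 3 reads, and 0 were higher, with a median log2 ratio of -0.31. Of 9 measured genes of microglia and macrophages, 3 were apart and lower and 0 higher, with a median of -0.37, and the macrophage receptor gene Mrc1 had 109 and 21 reads. Of 9 measured choroid plexus genes, 9 were lower and 0 higher.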
